A study of Mus musculus with 15 samples.

Results

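The genes described here are 39 genes of the S and G2/M phases of the cell cycle, listed by symbol for their function. Of these, 22 act in DNA replication and 17 in mitosis. They were found among the 55385 genes of the count table by matching each Ensembl identifier to its mouse symbol, and all 39 passed the filter on low counts. RNA was sequenced from bone marrow-derived macrophages (BMDMs) of 2 STAT5 fl/fl mice, numbered 112 and 113, and 3 STAT5 cKO mice, numbered 114, 115 and 116, all 6 wk old and on the BALB/c background. STAT5 fl/fl mice carry floxed Stat5 alleles, and STAT5 cKO mice come from crossing them with Csf1r-iCre mice, in which the Csf1r promoter drives Cre in myeloid lineages. BMDMs of each mouse were kept for 2 h in each of 3 media, which were DMEM without serum, rmGM-CSF at 20 ng/mL, and 4T1 CM (medium in which 4T1 cells, a mammary carcinoma line of the mouse, had grown), and this gave 15 libraries in 6 groups. The comparisons address how each stimulus changed expression, and whether loss of STAT5 altered that response.

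A dividing cell copies its DNA in S phase and separates the copies in mitosis. The MCM helicase is loaded at replication origins by Cdc6 and Cdt1, is activated with Cdc45 and the GINS complex, and opens the DNA for polymerases that are held by the Pcna clamp, while cyclin B with Cdk1, the Aurora kinases, Plk1 and the kinesins drive mitosis. Transcription of the first set is classically tied to E2F factors, and that of the second to the CHR element and CCAAT boxes bound by MuvB complexes and NF-Y. Macrophages divide in response to growth factors such as M-CSF and GM-CSF, and the GM-CSF receptor signals through STAT5.

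The promoters of both sets were read from RefSeq (GRCm38.p6) in windows of 300 bases, 250 before and 50 after the annotated start. Of the 39 members, 32 had an entry, with 37 windows in all. An E2F core, TTCCCGC or TTGGCGC on either strand, stood in 11 of 23 windows of replication members (47.8%) and in 3 of 14 windows of mitosis members (21.4%), against 6.81% of all 32851 windows. The CHR, TTTGAA on either strand, stood in 3 of 23 windows of replication members (13%) and 10 of 14 of mitosis members (71.4%), against 17.9% of all windows. CCAAT stood in 12 of 23 (52.2%), 13 of 14 (92.9%) and 37.4%, in the same order. The GAS-type motif TTCNNNGAA, the kind of site to which STAT factors bind, stood in 3 of 23 (13%), 0 of 14 and 8.3%. Motif letters in a promoter are a description of its sequence and not of binding. The bases upstream of the start are shown, 5′ to 3′ on the strand of the gene, for Mcm3, which was lower with both stimuli, for Mki67, which was highest in rmGM-CSF, and for Cdk1, which was highest in 4T1 CM. Capitals mark E2F cores, CHR and CCAAT on either strand.
Mcm3, chr1:20820313-20820562, minus strand: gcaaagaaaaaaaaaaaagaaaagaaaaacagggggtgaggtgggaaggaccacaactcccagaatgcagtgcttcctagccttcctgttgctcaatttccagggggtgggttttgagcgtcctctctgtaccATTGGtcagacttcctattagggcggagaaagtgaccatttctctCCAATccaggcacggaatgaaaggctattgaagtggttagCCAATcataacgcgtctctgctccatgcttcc
Mki67, chr7:135716380-135716629, minus strand: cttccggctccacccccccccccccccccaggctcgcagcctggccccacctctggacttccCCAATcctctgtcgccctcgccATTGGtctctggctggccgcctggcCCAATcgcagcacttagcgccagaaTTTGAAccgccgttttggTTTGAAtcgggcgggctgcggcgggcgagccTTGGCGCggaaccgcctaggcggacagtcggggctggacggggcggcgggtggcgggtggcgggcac
Cdk1, chr10:69352913-69353162, minus strand: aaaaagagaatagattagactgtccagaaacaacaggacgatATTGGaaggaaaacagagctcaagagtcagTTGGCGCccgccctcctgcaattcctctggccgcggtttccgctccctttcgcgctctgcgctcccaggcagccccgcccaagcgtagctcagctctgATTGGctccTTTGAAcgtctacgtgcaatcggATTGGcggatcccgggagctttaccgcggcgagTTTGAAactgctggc
The Mki67 and Cdk1 promoters each held 1 E2F core, 2 CHR and 3 CCAAT letters in this stretch, whereas that of Mcm3 held 3 CCAAT and no E2F core or CHR.

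Total counts per library ranged from 16016736 to 22883108 (median 21379480). Stat5a and Stat5b lay between 29 and 77.8 CPM (counts scaled to a common library size) in the 6 fl/fl libraries and at 4 counts or fewer in each of the 9 cKO libraries. All 9 macrophage markers were expressed, with a summed level of 24800 to 30170 CPM in fl/fl and 31310 to 47030 CPM in cKO libraries, without overlap. Of 8 markers of myeloid progenitors, Kit and Cd34 passed the filter. Mpo, Elane, Prtn3, Ctsg and Flt3 stayed at 4 counts or fewer, and Ms4a3 at 0. The summed level over the list was 19.2 to 26.3 CPM in fl/fl DMEM and rmGM-CSF libraries and 9.29 to 13.15 CPM in fl/fl 4T1 CM. In the cKO libraries it was 6.71 to 13.9 CPM. Those in 4T1 CM were at 6.71 to 12.2 CPM and overlapped with fl/fl 4T1 CM. Summed levels of the lists of neutrophil, dendritic cell and fibroblast markers were at most 12.9, 5.17 and 8.97 CPM in a library, and those of erythroid, lymphoid and mast cell markers, of which none passed the filter, at most 0.59, 0.319 and 0.103 CPM. A list of epithelial markers, added after the data were seen, reached 4.44 CPM in fl/fl 4T1 CM and 2.27 CPM in cKO 4T1 CM, mostly from Cdh1, and was at 1.18 to 1.43 CPM in fl/fl rmGM-CSF, at most 0.0491 CPM in cKO rmGM-CSF and at most 0.137 CPM in DMEM. In bulk RNA, fewer dividing cells and less RNA per cell cannot be told apart.

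One library stood apart in these genes, that of cKO mouse 115 in 4T1 CM. Of its 17 mitosis members, 13 were at their highest level of all 15 libraries (76.5%), as were 9 of 22 replication members (40.9%), against 10.3% of all 13005 tested genes. Plk1, a kinase needed for spindle assembly, was at 3.88 CPM there and at 0.805 and 0.725 CPM in the libraries of mice 114 and 116 of the same group. Ube2c, the ubiquitin-conjugating enzyme of the anaphase-promoting complex, was at 4.35 CPM against 0.805 and 0.906 CPM. Relative to the mean of the other cKO 4T1 CM libraries, 15 of 17 mitosis members and 6 of 22 replication members were more than 1.5-fold higher, compared with 3.61% of all tested genes. The total of this library, 22261354 counts, was within the range of the rest. Its summed level of progenitor markers was 6.71 CPM, the lowest of its group, and that of macrophage markers 47030 CPM, the highest. The part these values had in the result was not tested. Changes of named members that passed in the cKO 4T1 CM group are given with and without this library, and those of the further lists with all libraries.

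**Figure D1:**
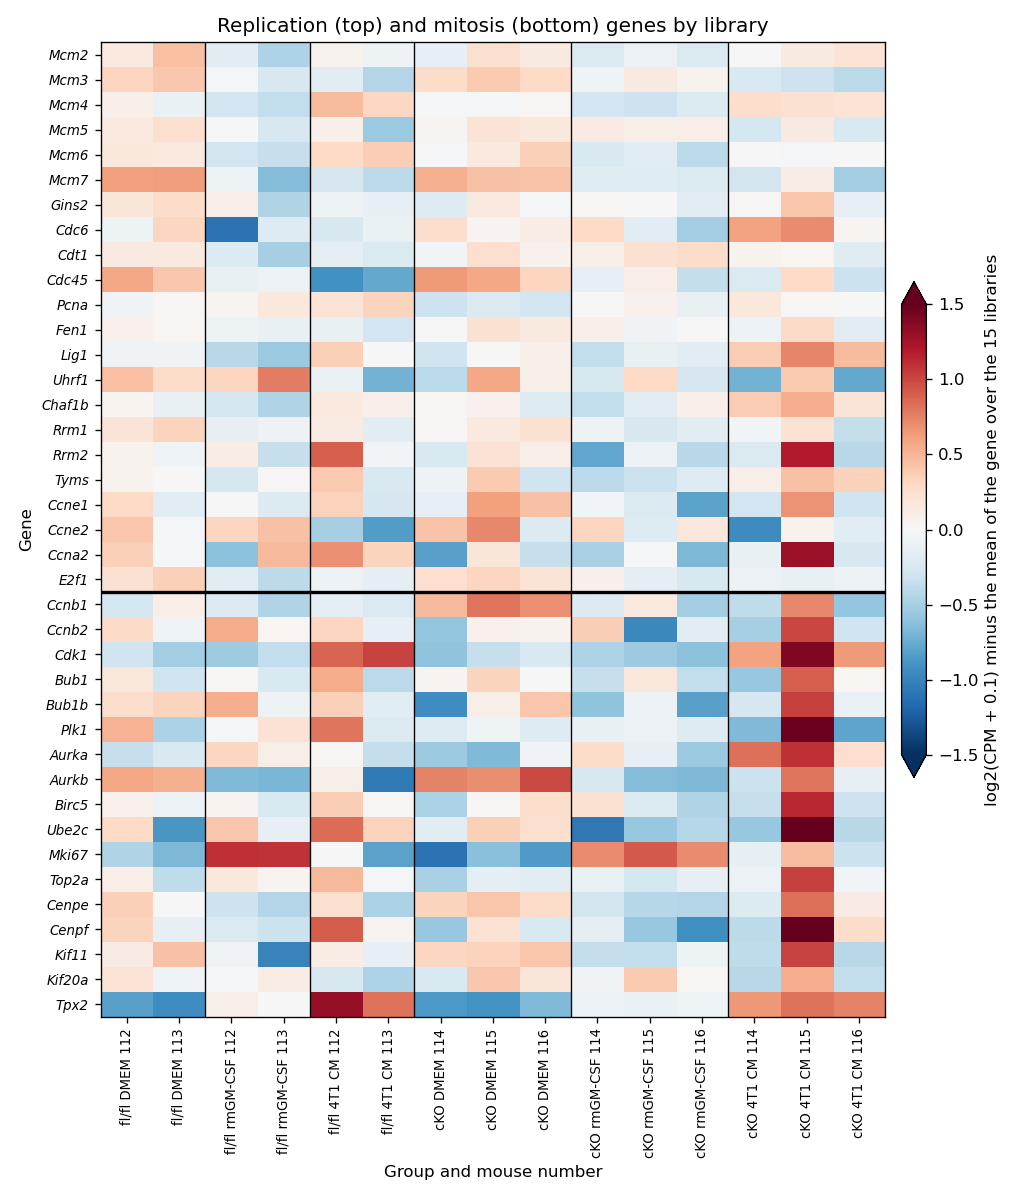
Each row is a replication member (above the thick line) or a mitosis member (below it), each column a library named by group and mouse, and the color is log2(CPM + 0.1) minus the mean of the gene over the 15 libraries. The column of cKO mouse 115 in 4T1 CM is red in nearly all mitosis rows, while Mki67 is red in all 5 rmGM-CSF libraries and Tpx2 in all 5 4T1 CM libraries.

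Levels were compared between genes on the scale of FPKM, which is CPM divided by the exon length in kilobases (mean of the means of the 6 groups). Pcna was at 64.1 FPKM and Cdt1 at 17.4, followed by Fen1, the flap endonuclease of lagging strand synthesis, at 9.45. The MCM subunits ranged from 2.05 (Mcm2) to 7.34 (Mcm4). Mitosis members ranged from 0.138 (Cenpf, a kinetochore protein) to 4.13 (Mki67, the protein detected by Ki-67 staining). Cdc6 was the lowest replication member at 0.206 FPKM, and its counts were between 7 and 38.

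With rmGM-CSF, more replication genes fell than rose, and the mitosis genes Mki67 and Tpx2 rose in both genotypes. In STAT5 fl/fl BMDMs, 8 of 39 members (20.5%) passed an adjusted p-value of 0.01, 2 higher and 6 lower, where 28.5% of all tested genes passed (15.9% higher and 12.6% lower). In STAT5 cKO BMDMs, 8 members passed (3 higher and 5 lower), where 23.5% of all genes did (13.3% higher and 10.2% lower). Among the 10 helicase and licensing genes, 5 fell in fl/fl (50%) and 3 in cKO BMDMs (30%), and none rose. In either direction together, the shares of members that passed were below those of all genes. The shares that fell, 15.4% of members in fl/fl and 12.8% in cKO BMDMs, were near those of all genes. By class, 27.3% of replication members fell in fl/fl and 18.2% in cKO BMDMs, and 0% and 5.88% of mitosis members. The difference between the classes was not tested. Without mouse 113, which leaves 1 fl/fl mouse, 2 members passed in fl/fl BMDMs, Mki67 and Tpx2. In cKO BMDMs 5, 5 and 4 members passed without mice 114, 115 and 116. Both stimuli were compared with the same DMEM libraries.

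In the order of the mouse numbers, which is kept throughout, Mki67 was at 26.4 and 22.6 CPM in fl/fl DMEM and at 77.4 and 76.4 CPM in fl/fl rmGM-CSF. The cKO values were 16.7, 23.4 and 19.9 CPM in DMEM and 58.9, 68.3 and 58.9 CPM in rmGM-CSF. No rmGM-CSF library overlapped with a DMEM library of its genotype. The increase was 3.15-fold in fl/fl (log2 1.65, SE 0.229, adjusted p = 1.87e-05) and 3.1-fold in cKO BMDMs (log2 1.63, SE 0.191, adjusted p = 3.65e-06), and the difference between them on the log2 scale was -0.02 (SE 0.298, adjusted p = 0.991). In 4T1 CM it was at 36.1 and 20.6 CPM in fl/fl libraries, which overlapped with DMEM, and at 33.0, 50 and 28.9 CPM in cKO libraries, which did not. Mki67 rose with 4T1 CM in cKO BMDMs 1.86-fold (log2 0.90, SE 0.194, adjusted p = 0.000959), and without the library of mouse 115 the log2 change was 0.63 (adjusted p = 0.0059). It was 2.7-fold lower in 4T1 CM than in rmGM-CSF in fl/fl (adjusted p = 7.59e-05) and 1.67-fold lower in cKO BMDMs (adjusted p = 0.00309).

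Tpx2, which activates Aurora A and organizes the spindle, was the only other mitosis member that rose with rmGM-CSF in either genotype. It was at 7.24 and 6.66 CPM in fl/fl DMEM, 13.7 and 12.8 CPM in rmGM-CSF, and 31.9 and 22.7 CPM in 4T1 CM. Levels in cKO BMDMs were 7.04, 6.84 and 8.04 CPM in DMEM, 12.0, 12.0 and 12.3 CPM in rmGM-CSF, and 20.1, 22.7 and 21.5 CPM in 4T1 CM. The 3 treatments did not overlap in either genotype. Tpx2 rose 1.9-fold with rmGM-CSF (adjusted p = 0.000165) and 3.93-fold with 4T1 CM in fl/fl BMDMs (log2 1.98, SE 0.144, adjusted p = 4.44e-09). In cKO BMDMs it rose 1.65-fold (adjusted p = 0.000279) and 2.93-fold (log2 1.55, SE 0.118, adjusted p = 6.52e-09).

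Aurkb, the kinase of the chromosomal passenger complex, fell in rmGM-CSF. It was at 4.97, 4.79 and 5.89 CPM in cKO DMEM and at 2.45, 1.83 and 1.79 CPM in cKO rmGM-CSF, a 2.56-fold decrease (log2 -1.36, SE 0.278, adjusted p = 0.00107). In fl/fl BMDMs the values were 4.41 and 4.26 CPM in DMEM and 1.81 and 1.77 CPM in rmGM-CSF, without overlap and with an adjusted p of 0.0118. The other 14 mitosis members did not pass in either genotype with rmGM-CSF.

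Among the replication genes, Mcm7 changed by the largest factor of those that passed with rmGM-CSF. It fell 1.98-fold in fl/fl (log2 -0.99, SE 0.178, adjusted p = 0.000269) and 1.58-fold in cKO BMDMs (log2 -0.66, SE 0.141, adjusted p = 0.00145). Mcm6, another helicase subunit, fell 1.38-fold and 1.34-fold (adjusted p = 0.00212 and 0.000986). E2f1, an activator of S phase genes, was at 20.9 and 22.8 CPM in fl/fl DMEM and at 15.8 and 13.6 CPM in rmGM-CSF. The cKO libraries were at 21.2, 22.3 and 20.6 CPM in DMEM and at 18.8, 16.2 and 15.02 CPM in rmGM-CSF. The groups did not overlap, and E2f1 fell 1.49-fold in fl/fl (adjusted p = 0.000484) and 1.27-fold in cKO BMDMs (adjusted p = 0.00485). Mcm2 fell in fl/fl BMDMs alone by this threshold (1.54-fold, adjusted p = 0.00221), and the difference between the genotypes in this response did not pass (adjusted p = 0.4). Pcna rose 1.2-fold in cKO BMDMs (adjusted p = 0.00367), a change that did not pass with library totals alone or without mouse 114 or 115.

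Mcm3 was at 33.2 and 35.0 CPM in fl/fl DMEM, 26.1 and 22.4 CPM in rmGM-CSF, and 23.7 and 19.4 CPM in 4T1 CM. In cKO BMDMs it was at 32.2, 34.8 and 32.5 CPM in DMEM, 25.3, 29.1 and 27.4 CPM in rmGM-CSF, and 22.6, 21.3 and 19.9 CPM in 4T1 CM. Every stimulated library lay below every DMEM library. It fell 1.41-fold with rmGM-CSF in fl/fl BMDMs (adjusted p = 0.0012), and in cKO BMDMs, where it was 1.21-fold lower, it missed the threshold (adjusted p = 0.0164). With 4T1 CM it fell 1.58-fold in fl/fl (log2 -0.66, SE 0.106, adjusted p = 6e-05) and 1.56-fold in cKO BMDMs (log2 -0.64, SE 0.0861, adjusted p = 7.94e-06).

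Mcm4, a subunit of the same helicase, moved the other way with 4T1 CM. It was at 27.3 and 24.1 CPM in fl/fl DMEM, 21.3 and 20.1 CPM in rmGM-CSF, and 36.03 and 32.02 CPM in 4T1 CM. The cKO values were 25.6, 25.3 and 26.5 CPM in DMEM, 21.3, 20.8 and 22.4 CPM in rmGM-CSF, and 30.95, 30.4 and 29.9 CPM in 4T1 CM. The order of the treatments was the same in both genotypes, with no overlap. Mcm4 was 1.65-fold higher in 4T1 CM than in rmGM-CSF in fl/fl (log2 0.72, SE 0.089, adjusted p = 4.83e-06) and 1.42-fold higher in cKO BMDMs (log2 0.51, SE 0.0718, adjusted p = 1.91e-05). Against DMEM it rose with 4T1 CM 1.33-fold in fl/fl (adjusted p = 0.000702) and 1.18-fold in cKO BMDMs (adjusted p = 0.00892), and the latter did not pass without the library of mouse 115 (log2 0.24, adjusted p = 0.0201). Scaled by library totals alone, neither rise over DMEM passed.

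**Figure D2:**
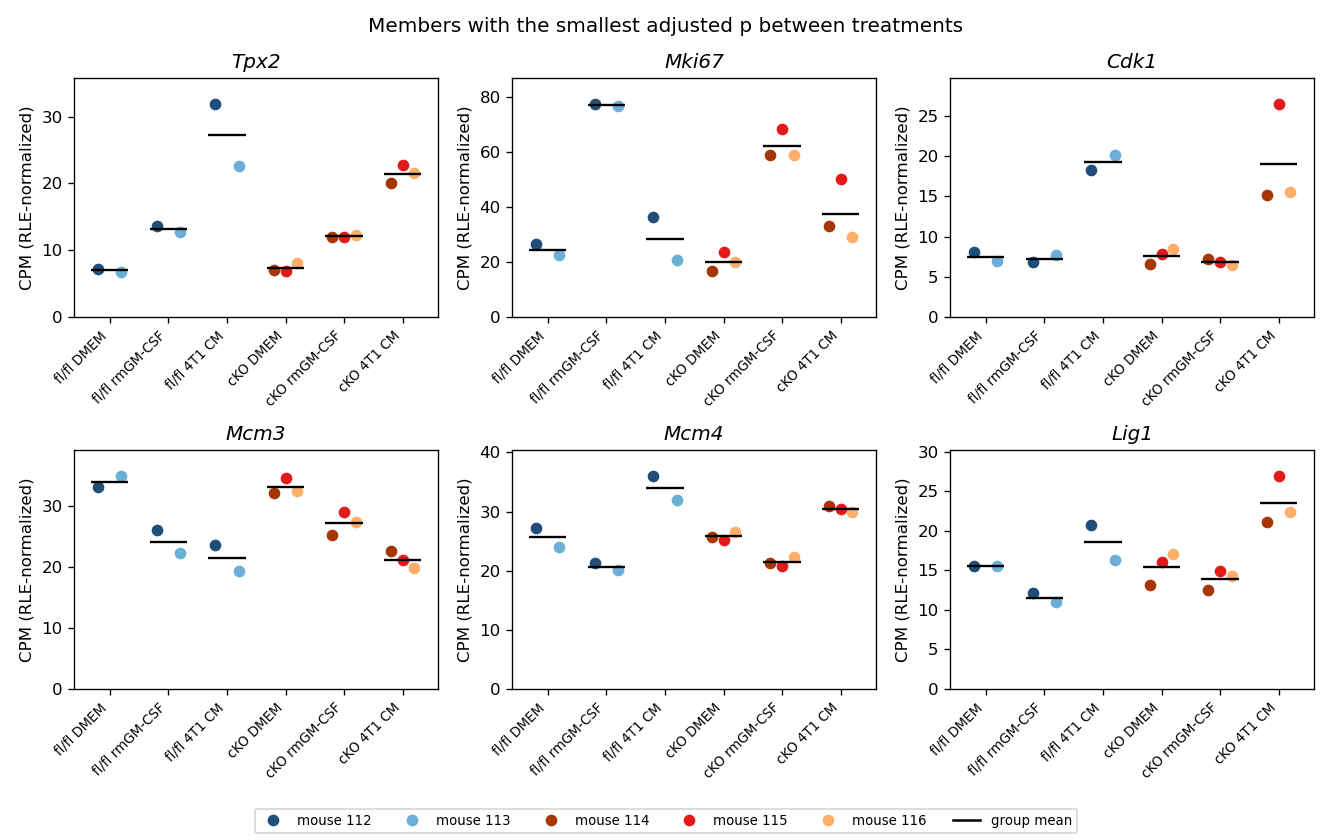
RLE-normalized CPM of 6 members in each library (points, colored by mouse) with the mean of each group (line), on axes that start at 0. Tpx2 steps up from DMEM through rmGM-CSF to 4T1 CM in both genotypes, Mki67 is highest in rmGM-CSF, Cdk1 in 4T1 CM, and Mcm3 and Mcm4 differ in direction under 4T1 CM.

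With 4T1 CM, 8 of 39 members passed against DMEM in fl/fl BMDMs (4 higher and 4 lower), where 37.4% of all genes passed (19.2% higher and 18.2% lower). In cKO BMDMs 10 members passed (7 higher and 3 lower), where 37.6% of all genes did (19.3% higher and 18.4% lower). Without mouse 113, 2 members passed in fl/fl BMDMs, Tpx2 and Mcm7, and without mouse 112, 5 did. Cdk1, the kinase that triggers entry into mitosis, was at 8.10 and 6.92 CPM in fl/fl DMEM, 6.86 and 7.68 CPM in rmGM-CSF, and 18.3 and 20.2 CPM in 4T1 CM. Levels in cKO BMDMs were 6.53, 7.80 and 8.49 CPM in DMEM, 7.21, 6.78 and 6.46 CPM in rmGM-CSF, and 15.2, 26.5 and 15.5 CPM in 4T1 CM. Every 4T1 CM library lay above all others, whereas DMEM and rmGM-CSF overlapped. Cdk1 rose 2.56-fold with 4T1 CM in fl/fl (log2 1.36, SE 0.22, adjusted p = 6.53e-05) and 2.5-fold in cKO BMDMs (log2 1.32, SE 0.178, adjusted p = 7.98e-06), and without the library of mouse 115 the latter was 1.01 on the log2 scale (adjusted p = 1.26e-06). Its partners Ccnb1 and Ccnb2 were not among the members that rose.

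Lig1, the ligase that joins Okazaki fragments, was at 15.6 and 15.5 CPM in fl/fl DMEM, 12.1 and 11.0 CPM in rmGM-CSF, and 20.8 and 16.3 CPM in 4T1 CM. The cKO libraries were at 13.1, 16.1 and 17.02 CPM in DMEM, 12.5, 14.9 and 14.3 CPM in rmGM-CSF, and 21.1, 26.9 and 22.4 CPM in 4T1 CM. Lig1 was highest in 4T1 CM in both genotypes, with little distance from DMEM in fl/fl BMDMs. It was 1.61-fold higher in 4T1 CM than in rmGM-CSF in fl/fl (adjusted p = 0.00205) and 1.69-fold higher in cKO BMDMs (log2 0.75, SE 0.121, adjusted p = 6.82e-05), and 1.52-fold higher than in DMEM in cKO BMDMs (adjusted p = 0.000344).

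Pcna was at 146 and 152 CPM in fl/fl DMEM, 155 and 168 CPM in rmGM-CSF, and 174 and 190 CPM in 4T1 CM. In cKO BMDMs it was at 122, 129 and 123 CPM in DMEM, 152, 158 and 139 CPM in rmGM-CSF, and 168, 152 and 150 CPM in 4T1 CM. The 4T1 CM libraries lay above the DMEM libraries of the same genotype, by 1.22-fold in fl/fl (adjusted p = 0.00503) and 1.26-fold in cKO BMDMs (adjusted p = 0.000343), and neither difference passed when libraries were scaled by their totals alone. A pseudogene, Pcna-ps2, held at most 54 counts in a library, against 2175 or more for Pcna. Other members that passed with 4T1 CM were Mcm7 and E2f1, which fell in both genotypes (1.94-fold and 1.32-fold in fl/fl, 1.6-fold and 1.28-fold in cKO BMDMs), Cdc45, which fell 2.66-fold in fl/fl BMDMs (adjusted p = 0.000509), and Aurka, which rose 2.27-fold in cKO BMDMs (adjusted p = 0.000477). Without the library of mouse 115, 13 members passed in cKO BMDMs, 6 higher and 7 lower. Without it, Tpx2 was higher by 1.51 on the log2 scale, Aurka by 0.979, Lig1 by 0.494 and Pcna by 0.349, while the log2 change was -0.64 for Mcm3, -0.868 for Mcm7 and -0.351 for E2f1, and these 7 still passed. Members that joined were Ccnb1 (log2 -1.20, adjusted p = 0.000412), Aurkb (log2 -1.06, adjusted p = 0.000861), Kif11, the kinesin that separates spindle poles (log2 -0.79, adjusted p = 0.00501), and Cdc45 (log2 -0.82, adjusted p = 0.00453), all lower. The left-out library was chosen after the data were seen and was high in these members. Ccnb1, Aurkb, Kif11 and Cdc45 were there at 2.4, 2.06, 2.74 and 1.51 times the mean of the other cKO 4T1 CM libraries. Leaving it out therefore lowers their group mean, so the added calls describe that fit and give no independent evidence of a fall. In that fit Aurkb also passed as lower in fl/fl BMDMs with both stimuli. Ccnb1 and Cenpe, a kinetochore motor, passed as lower with rmGM-CSF in cKO BMDMs. None of these comparisons contains the left-out library, which enters them only through the model shared by all groups. These calls are therefore no further evidence of a fall.

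Between the stimuli, 6 members passed in fl/fl BMDMs (5 higher in 4T1 CM and 1 lower), where 30.5% of all genes did (13.8% higher and 16.7% lower), and 8 in cKO BMDMs (6 higher and 2 lower), where 34.1% did (16.6% higher and 17.5% lower). Mcm4, Lig1, Cdk1 and Tpx2 were higher in 4T1 CM than in rmGM-CSF in both genotypes. Without mouse 113, 2 members passed in fl/fl BMDMs, Mcm4 and Tpx2, and without mouse 115, 5 passed in cKO BMDMs. Mcm6 was 1.57-fold higher in fl/fl BMDMs (adjusted p = 0.000106). Chaf1b, a subunit of chromatin assembly factor 1, was 1.46-fold higher (adjusted p = 0.00448), Aurka 1.81-fold higher (adjusted p = 0.00667) and Mcm3 1.28-fold lower (adjusted p = 0.00301) in cKO BMDMs. Without the library of mouse 115, Chaf1b and Aurka did not pass (log2 0.454 and 0.649, adjusted p = 0.0242 and 0.0392). The log2 differences that still passed in cKO BMDMs were then 0.506 for Mcm4, 0.645 for Lig1, 1.17 for Cdk1, 0.785 for Tpx2, -0.36 for Mcm3 and -1 for Mki67.

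Over all 6 comparisons of treatments, 16 members passed in at least 1, which were 11 of 22 replication (50%) and 5 of 17 mitosis members (29.4%), where 61.6% of all 13005 tested genes passed in at least 1. The 11 replication members that passed in none were Mcm5, Gins2, Cdc6, Fen1, Uhrf1, Rrm1, Rrm2, Tyms, Ccne1, Ccne2 and Ccna2. No gene of nucleotide supply and no S phase cyclin thus passed. Apart from Rrm1, the lowest counts of these genes in a library were 7 (Ccne2) to 38 (Tyms). A missed threshold does not show that they were unchanged. Rrm1, the large subunit of ribonucleotide reductase, was at 32.6 and 35.9 CPM in fl/fl DMEM, 26.3 and 27.1 CPM in rmGM-CSF, and 31.02 and 25.5 CPM in 4T1 CM. The cKO values were 28.8, 31.5 and 33.4 CPM in DMEM, 27.0, 24.2 and 25.5 CPM in rmGM-CSF, and 27.7, 33.3 and 22.2 CPM in 4T1 CM. The rmGM-CSF libraries lay below DMEM in both genotypes, with adjusted p-values of 0.0523 and 0.0621. The 12 mitosis members that passed in none included Top2a, Plk1, Bub1, Birc5, Cenpf and both B cyclins. Apart from Top2a, the lowest counts of these in a library were 15 to 30, so that a missed threshold does not show that they were unchanged. Top2a, the topoisomerase that untangles sister chromosomes, was at 18.6, 40.4 and 19.3 CPM in cKO 4T1 CM and at 14.2, 17.9 and 17.7 CPM in cKO DMEM, in the order of mice 114, 115 and 116. Its groups did not overlap, the library of mouse 115 was far above the rest, and the adjusted p was 0.0281. Ccnb1, the cyclin partner of Cdk1, was at 2.67, 3.35 and 3.09 CPM in cKO DMEM, 1.62, 2.097 and 1.28 CPM in rmGM-CSF, and 1.42, 3.17 and 1.22 CPM in 4T1 CM. The library of mouse 115 in 4T1 CM lay within the range of DMEM and the other 4T1 CM libraries below it. In fl/fl BMDMs Ccnb1 lay between 1.34 and 2.03 CPM in all 6 libraries.

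**Figure D3:**
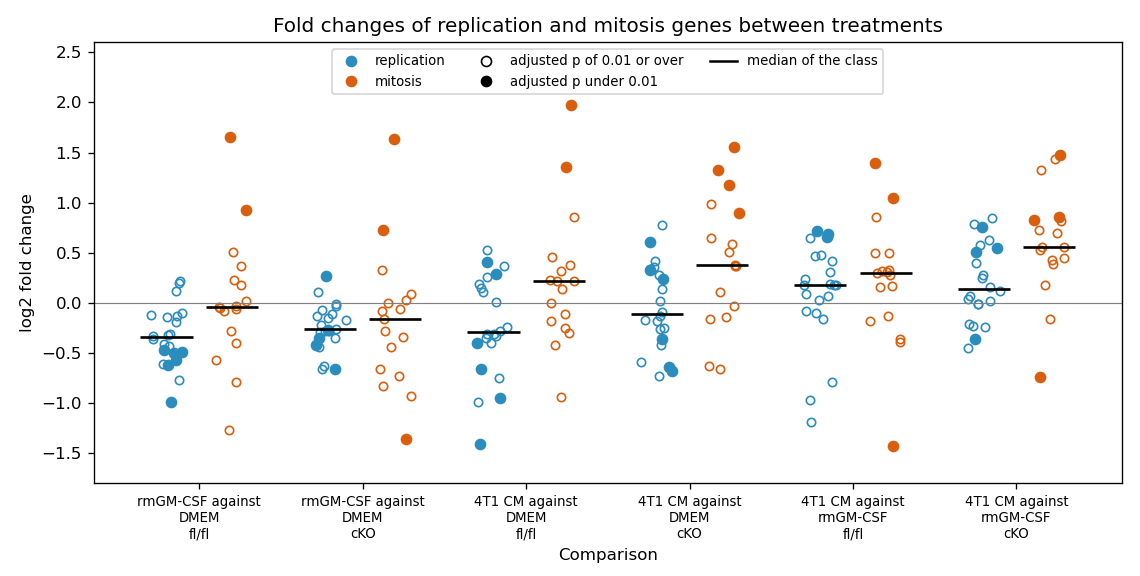
Log2 fold changes of the 22 replication members (blue) and the 17 mitosis members (orange) in the 6 comparisons of treatments, filled where the adjusted p-value was under 0.01, with the median of each class as a line. The mitosis median lies above the replication median in all 6, and few mitosis members far from 0 are filled.

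The median log2 fold change of the replication members was below that of the mitosis members in all 6 comparisons of treatments. With rmGM-CSF the medians were -0.346 and -0.0408 in fl/fl and -0.265 and -0.157 in cKO BMDMs, replication first. With 4T1 CM against DMEM they were -0.294 and 0.219 in fl/fl and -0.114 and 0.376 in cKO BMDMs. The median of all genes lay between -0.00621 and 0.0152 in the 6 comparisons. In cKO BMDMs the difference between the classes under 4T1 CM was -0.49 with all libraries and 0.104 without the library of mouse 115, where the mitosis median became -0.313 and the replication median -0.21. In fl/fl BMDMs the difference was -0.513, and it was -0.258 without mouse 112 and -0.399 without mouse 113. With single mice left out, the mitosis median was below the replication median also for rmGM-CSF against DMEM in cKO BMDMs without mouse 114 (difference 0.179) and for 4T1 CM against rmGM-CSF in fl/fl BMDMs without mouse 112 (0.212). A difference of class medians is a description and was not tested.

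By library, the mean log2 CPM of the replication members fell from DMEM to rmGM-CSF in 5 of 5 mice, by between 0.119 and 0.347. From DMEM to 4T1 CM it changed by -0.335 to -0.061 in 4 mice and by 0.083 in mouse 115. The mean of the mitosis members changed by between -0.403 and 0.138 with rmGM-CSF. With 4T1 CM it changed by 0.982 in mouse 115 and 0.339 in mouse 112, and by 0.066, 0.099 and -0.17 in mice 113, 114 and 116. The mean of the replication members thus moved in 1 direction with rmGM-CSF in every mouse, although single members such as Pcna went against it, and the mean of the mitosis members did not with either stimulus.

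**Figure D4:**
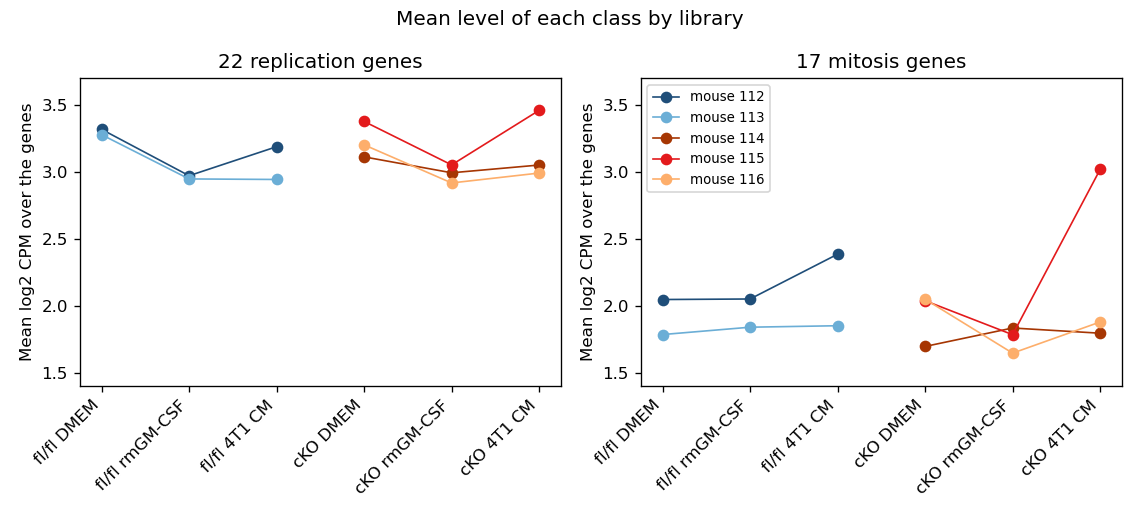
Mean log2 CPM over the 22 replication members (left) and the 17 mitosis members (right) in each library, with lines that join the libraries of a mouse. The mean of mitosis members was 3.02 in the library of cKO mouse 115 in 4T1 CM and between 1.65 and 2.38 in the other 14 libraries.

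Few members passed the threshold between genotypes. Few of all genes passed in DMEM and for the interactions either, so that a count of 0 does not set the members apart there. Between the genotypes 0 members passed in DMEM (2 at an unadjusted p under 0.05, 0 with DESeq2), where 2.49% of all genes passed (0.938% higher and 1.55% lower), and 0 in 4T1 CM (7 at an unadjusted p under 0.05, 0 with DESeq2), where 7.7% did (4.13% higher and 3.57% lower). In rmGM-CSF 1 member passed, Cdt1, where 9.8% of all genes did (3.57% higher and 6.24% lower). By edgeR, the interaction of genotype and stimulus passed in 0 members for rmGM-CSF against DMEM (1 at an unadjusted p under 0.05, 1 with DESeq2), 0 for 4T1 CM against DMEM (5 and 0) and 0 for 4T1 CM against rmGM-CSF (4 and 0), where 3.11% (0.884% higher and 2.22% lower), 1.27% (0.73% and 0.538%) and 1.47% (1.32% and 0.146%) of all genes passed.

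Cdt1, which loads the MCM helicase and is kept in check by geminin, was at 60.3 and 60.7 CPM in fl/fl DMEM, 47.4 and 38.97 CPM in rmGM-CSF, and 50.2 and 47.4 CPM in 4T1 CM. Levels in cKO BMDMs were 53.2, 65.5 and 57.5 CPM in DMEM, 58.5, 64.6 and 66.6 CPM in rmGM-CSF, and 56.8, 55.8 and 48.4 CPM in 4T1 CM. The genotypes overlapped in DMEM and in 4T1 CM and did not in rmGM-CSF. Cdt1 was 1.47-fold higher in cKO than in fl/fl BMDMs in rmGM-CSF (log2 0.55, SE 0.102, adjusted p = 0.000963), and without mouse 113 the log2 difference was 0.415 and did not pass (adjusted p = 0.0701). With rmGM-CSF it fell 1.4-fold in fl/fl BMDMs (adjusted p = 0.00183, and 0.125 without mouse 113), and the log2 change in cKO BMDMs was 0.10 (SE 0.0872, adjusted p = 0.385). The difference between these responses was 0.59 on the log2 scale (SE 0.14, adjusted p = 0.017), and with the mouse as a replicate block it was 0.60 and passed (adjusted p = 0.00555).

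The next smallest adjusted p-values between genotypes did not pass. Mcm6 was at 34.8 and 34.5 CPM in fl/fl DMEM, 25.6 and 24.6 CPM in rmGM-CSF, and 38.4 and 40.5 CPM in 4T1 CM. The cKO libraries were at 30.8, 34.7 and 40.0 CPM in DMEM, 26.7, 28.1 and 23.5 CPM in rmGM-CSF, and 31.3, 31 and 31.1 CPM in 4T1 CM. The genotypes overlapped except in 4T1 CM, where Mcm6 was 1.27-fold lower in cKO BMDMs (log2 -0.34, SE 0.094, adjusted p = 0.0214). Pcna was 1.19-fold lower in cKO than in fl/fl BMDMs in DMEM (adjusted p = 0.0373) and 1.16-fold lower in 4T1 CM (adjusted p = 0.0466), without overlap of the libraries. Aurka was at 2.23 and 2.45 CPM in fl/fl DMEM, 3.62 and 3.06 CPM in rmGM-CSF, and 2.92 and 2.22 CPM in 4T1 CM. In cKO BMDMs it was at 1.93, 1.79 and 2.76 CPM in DMEM, 3.48, 2.63 and 1.92 CPM in rmGM-CSF, and 5.16, 6.24 and 3.44 CPM in 4T1 CM. In 4T1 CM the cKO libraries lay above the fl/fl libraries, 1.91-fold on average (log2 0.93, SE 0.268, adjusted p = 0.0262), and the interactions had adjusted p-values of 0.235 against DMEM and 0.154 against rmGM-CSF. Tpx2 was 1.27-fold lower in cKO BMDMs in 4T1 CM (adjusted p = 0.0481), with overlap. Without the library of mouse 115, the log2 differences in 4T1 CM were -0.336 for Mcm6 (adjusted p = 0.0437), 0.732 for Aurka (adjusted p = 0.0877), -0.195 for Pcna (adjusted p = 0.112) and -0.391 for Tpx2 (adjusted p = 0.048). With 2 fl/fl mice, a missed threshold does not show that the genotypes were alike.

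**Figure D5:**
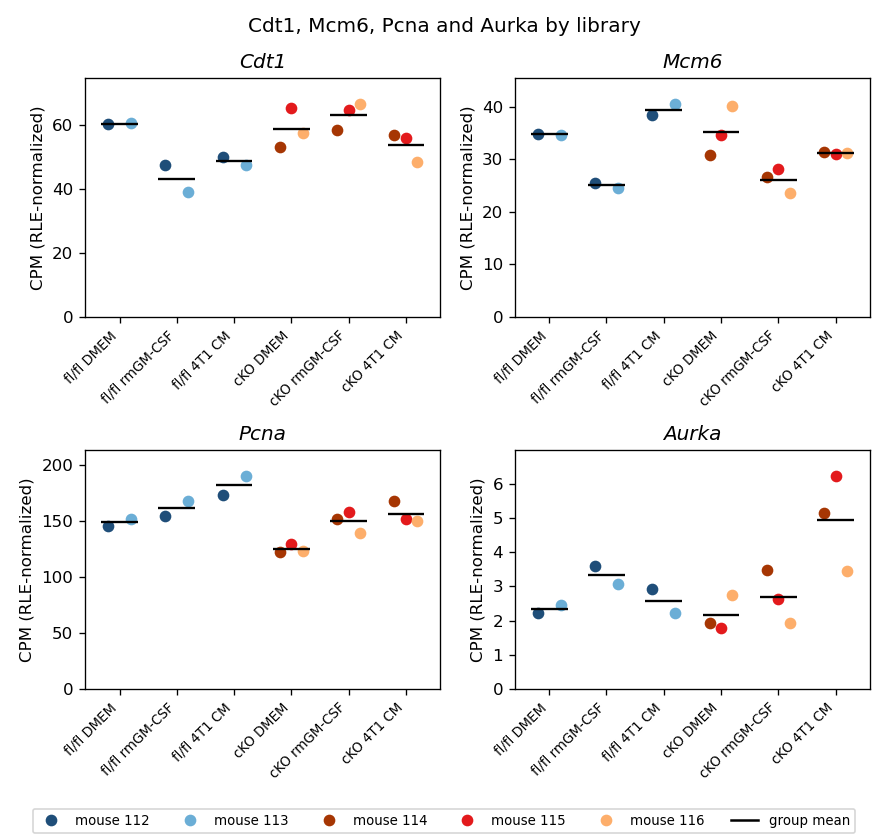
RLE-normalized CPM of Cdt1, Mcm6, Pcna and Aurka in each library (points, colored by mouse) with the mean of each group (line), on axes that start at 0. Cdt1 is lower in the fl/fl rmGM-CSF libraries (47.4 and 38.97 CPM) than in the cKO rmGM-CSF libraries (58.5 to 66.6 CPM).

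Other replication genes were read beside the members. Of 35 tested genes of this further list, 5 fell with rmGM-CSF in fl/fl and 10 in cKO BMDMs, 9 fell with 4T1 CM in fl/fl and 10 in cKO BMDMs, and 0 rose in any of these. As shares these were 14.3%, 28.6%, 25.7% and 28.6%, where 12.6%, 10.2%, 18.2% and 18.4% of all genes fell. They included Gmnn, which encodes geminin, the inhibitor of Cdt1. It was at 14.1 to 16.5 CPM in fl/fl DMEM and 5.99 to 6.28 CPM in 4T1 CM, and fell there by 1.32 on the log2 scale (adjusted p = 2.16e-06). In cKO BMDMs it fell by 1.001 with 4T1 CM (adjusted p = 2.06e-06). Chaf1a, the partner of Chaf1b, fell by 1.26 in fl/fl and 1.25 in cKO BMDMs (adjusted p = 0.000265 and 1.36e-05), and Hells, a chromatin remodeler, by 1.01 and 0.76 (adjusted p = 9.45e-05 and 0.000109).

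Of 43 tested further mitosis genes, 4 rose and 3 fell with 4T1 CM in fl/fl BMDMs, and likewise 4 and 3 in cKO BMDMs. This was 16.3% of the list in each genotype, where 37.4% and 37.6% of all genes passed. With all libraries, the median log2 change of the list against DMEM was -0.203 in fl/fl BMDMs, with 14 genes above 0 and 29 below. In cKO BMDMs it was 0.138. The medians of the mitosis members were 0.219 and 0.376, so that the sign differed between the lists in fl/fl BMDMs. Cenpa, the centromeric histone, was at 38.9 to 50.7 CPM in fl/fl DMEM and 75.9 to 80.5 CPM in 4T1 CM, and at 35.5 to 42.2 and 90.2 to 103 CPM in cKO BMDMs. It rose by 0.80 and 1.35 on the log2 scale (adjusted p = 2.03e-05 and 2.74e-09). Ckap2l, a spindle protein, rose by 1.70 and 2.32 (adjusted p = 0.000142 and 1.3e-06), while Kif23, a kinesin of cytokinesis, fell by 2.15 and 1.595 (adjusted p = 2.21e-08 and 3.44e-08). In this list 26 of 43 genes were highest in the library of mouse 115 in 4T1 CM (60.5%). The mitosis members that passed with 4T1 CM against DMEM, 2 in fl/fl and 4 in cKO BMDMs, were all higher with all libraries, whereas the further genes that passed lay in both directions.

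Of 25 tested G1 regulators, 7 rose and 5 fell with rmGM-CSF in fl/fl and 8 and 6 in cKO BMDMs, and 10 rose and 6 fell with 4T1 CM in fl/fl and 10 and 7 in cKO BMDMs. As shares these were 48%, 56%, 64% and 68%, where 28.5%, 23.5%, 37.4% and 37.6% of all genes passed. Myc was at 7.60 to 8.90 CPM in fl/fl DMEM, 62.1 to 68.2 CPM in rmGM-CSF and 111 to 113 CPM in 4T1 CM, and rose with 4T1 CM by 3.76 on the log2 scale (adjusted p = 5.71e-14). Cdkn1a, the inhibitor p21, was at 78.8 to 79.5 CPM in fl/fl DMEM and 829 to 905 CPM in rmGM-CSF, and at 147 to 159 and 466 to 499 CPM in cKO BMDMs. It rose by 3.45 and 1.64 on the log2 scale, and this response differed between the genotypes (log2 -1.81, SE 0.126, adjusted p = 1.19e-07). Ccnd1, a D-type cyclin, rose with 4T1 CM by 2.51 in fl/fl and 2.13 in cKO BMDMs (adjusted p = 3.12e-10 and 1.01e-10).

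Of 15 tested E2F, MYB and MuvB factors, 4 rose and 3 fell with rmGM-CSF in fl/fl and 2 and 2 in cKO BMDMs, and 3 rose and 5 fell with 4T1 CM in fl/fl and 4 and 6 in cKO BMDMs. These were 46.7%, 26.7%, 53.3% and 66.7% of the list, against the same shares of all genes, and the second was near its background of 23.5%. E2f2 was at 2.28 to 2.87 CPM in fl/fl DMEM, 0.698 to 1.06 CPM in rmGM-CSF and 9.40 to 11.3 CPM in 4T1 CM. The cKO values were 3.36 to 4.45, 2.21 to 4.28 and 13.0 to 17.8 CPM. It rose with 4T1 CM by 2.01 and 2.02 on the log2 scale (adjusted p = 2.14e-06 and 2.4e-08), the opposite direction to E2f1. Foxm1, a factor of mitotic transcription, fell with 4T1 CM by 0.97 and 0.54 (adjusted p = 0.000143 and 0.0035), and Lin9, a MuvB subunit, fell by 1.597 and by 1.23 (adjusted p = 3.91e-08 and 4.26e-08).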

How the data were processed

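RNA of BMDMs from 15 cultures was sequenced after TriPure extraction and TruSeq stranded library preparation. Per the study's methods and processing notes, the authors trimmed reads (Trimmomatic 0.33), aligned them to GRCm38 (HISAT2 2.1.0) and counted pairs per Ensembl gene on the strand of the gene (featureCounts 1.6.2), with the CHURP 0.2.2 pipeline. The deposited values are raw counts per gene. A further fl/fl replicate was removed at quality control, per the study's methods. Other libraries named in the table's header have no column of counts in it and were not analysed here.

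Counts were scaled by RLE factors (0.945 to 1.08), and 13005 genes, those above 1 CPM in 2 or more libraries, entered the tests. One model with a term for each of the 6 groups was fitted with the quasi-likelihood test of edgeR 4.0.16 in R 4.3.3, after the study's normalization and filter, with Benjamini-Hochberg adjustment over all of them and a threshold of 0.01. Every adjusted p-value in the text is from this model unless another is named. The study's own test within edgeR is not given in the sources used here. The scripts were tested on simulated data. FPKM used the exon length of each gene in the table. Libraries of 1 mouse are taken as the same animal across treatments from the number in their labels. Over all tested genes, their deviations from the group means correlated with r between 0.0548 and 0.214 in 15 pairs. With 2 fl/fl mice the deviations mirror each other, so that the pairs of mice 112 and 113 hold the same values. Over the members r lay between -0.353 and 0.473. Alternatives were TMM factors, library totals, no filter, another threshold, DESeq2 1.42.0, the likelihood ratio test, edgeR's older quasi-likelihood method, limma 3.58.1 voom with mouse as a random effect, a replicate block, a list without Ccna2, and leaving out mice or the library of cKO mouse 115 in 4T1 CM. The older method and the left-out library were chosen after seeing the data. The members and lists were chosen with earlier results of these data known. Values in every library are given for the 3 replication and the 3 mitosis members with the smallest adjusted p between treatments, the 2 of each between genotypes and the member of each role with the highest FPKM. Aurkb, Plk1, Ube2c, Top2a and Ccnb1 were added after their values were seen. Of the further lists, genes past the threshold were named, at most 6 in a list and comparison.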

Additional observations from a re-analysis of the deposited data

Results flagged for a closer look

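The response of Cdt1 to rmGM-CSF differed between the genotypes in the model with the mouse as a replicate block, where the test of the difference itself passed. The log2 change from DMEM was 0.598 higher in cKO than in fl/fl BMDMs (SE 0.127, adjusted p = 0.00555, edgeR). Cdt1 was lower in rmGM-CSF than in DMEM in 2 of 2 fl/fl mice. In cKO BMDMs it was higher in mice 114 and 116 and lower in mouse 115. Without the block, the difference was 0.593 and did not pass (adjusted p = 0.017). No member passed this interaction with limma voom and the mouse as a random effect, with TMM factors, or with any of the 5 mice left out in the model without the block.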

How the results depend on the processing

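Of the 49 calls of members, none reversed under any alternative. TMM factors, the likelihood ratio test, limma voom (correlation within mouse 0.0681) and edgeR's older method each kept 49, and the replicate block kept 48 of the 48 it could be fitted for. DESeq2 and no filter each kept 47, without Mcm4 in cKO BMDMs with either stimulus. Library totals alone kept 44, without Mcm4 with 4T1 CM in both genotypes, Pcna with 4T1 CM in both and Pcna with rmGM-CSF in cKO BMDMs, and moved the median log2 change of all genes from near 0 to between -0.168 and -0.121 for stimuli against DMEM. Without mouse 112, 113, 114, 115 or 116, the calls kept were 41, 30, 40, 40 and 41. With fl/fl mouse 112 or 113 left out, the remaining fl/fl sample of each treatment is assumed to vary like the other groups.

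Over mice left out in turn, and without the library of cKO mouse 115 in 4T1 CM, the number of members past the threshold was 2 to 9 for rmGM-CSF against DMEM in fl/fl (2 without mouse 113) and 4 to 10 in cKO BMDMs (5, 5 and 4 without mice 114, 115 and 116), 2 to 9 for 4T1 CM against DMEM in fl/fl and 7 to 13 in cKO BMDMs, 2 to 7 for 4T1 CM against rmGM-CSF in fl/fl and 5 to 7 in cKO BMDMs (5 without mouse 115), and 0 to 1 between genotypes in rmGM-CSF and in 4T1 CM. At an adjusted p of 0.05, 1 member passed between genotypes in DMEM, 4 in 4T1 CM and 13 for 4T1 CM against rmGM-CSF in cKO BMDMs, and with no filter 1 passed between genotypes in 4T1 CM. The interaction for rmGM-CSF passed in 1 member with library totals, no filter, the likelihood ratio test, DESeq2, the replicate block and an adjusted p of 0.05.

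The difference of medians, replication minus mitosis, was -0.534 to -0.298 over the same settings for rmGM-CSF in fl/fl BMDMs, -0.514 to -0.258 for 4T1 CM against DMEM in fl/fl, -0.879 to 0.104 in cKO BMDMs (0.0871 without mouse 115), and -0.14 to 0.212 for 4T1 CM against rmGM-CSF in fl/fl. For 4T1 CM against DMEM in fl/fl BMDMs it was -0.455 with limma voom, -0.491 with the replicate block and -0.529 without Ccna2, and for 4T1 CM against rmGM-CSF -0.0276 and -0.0836 with the first and second of these. The cause of these changes was not tested. No replicate block could be fitted between genotypes, whose mice differ. Counts of Cdc6, Ccne2 and Ube2c fell to 7 to 11 in a library, and those of Bub1b, Cenpf, Plk1, Ccne1, Ccnb2, Cdc45 and Ccnb1 to 15 to 20. Small changes of such members were not detectable at this depth.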
